A study of Mus musculus with 27 samples.

Results

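The major histocompatibility complex (MHC) of the mouse, H2, lies on chromosome 17, and 10 of its genes are followed here through 3 states of CD8 T cells, out of 35275 genes in the expression tables. The 10 genes are H2-K1, H2-D1, H2-M3, H2-T10, H2-T-ps, Gm8909, Gm10499, Gm8810, Gm9574 and Ddr1, taken by symbol from a fixed list. They were listed because the differences between naive Let-7Tg and naive WT cells gather between 30 and 40 Mb of chromosome 17. The genes were thus chosen by their naive FPKM differences, which are given below as a description without a test. The rule does not use the 12 h and day 5 libraries, although earlier results of these data were known when the list was made. The question asked of those libraries is whether the naive pattern was present there too.

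Classical class I genes such as H2-K1 and H2-D1 encode the heavy chains that, with beta 2-microglobulin, present peptides from inside the cell to CD8 T cells on the surface of nearly every nucleated cell. Non-classical, or class Ib, genes such as H2-M3 are less variable and more restricted, and H2-M3 presents N-formylated peptides of bacteria and mitochondria. Around them the T region of the MHC holds a run of class I copies, many of them pseudogenes, and its content differs between inbred strains. Ddr1, a collagen-binding receptor tyrosine kinase, lies in the same region without being an antigen-presenting gene.

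The cells were P14+ CD8 T cells, which carry a transgenic T cell receptor for a lymphocytic choriomeningitis virus peptide presented by the product of H2-D1. They came from lymph nodes of young adult mice of both sexes on a Rag2-/- background, in 3 genotypes labelled WT, Lin28bTg and Let-7Tg. Lin28bTg cells express Lin28b, an RNA-binding protein that blocks let-7 maturation, and Let-7Tg cells carry a doxycycline-inducible let-7 transgene. By the study's methods all mice, controls included, received doxycycline in drinking water, so WT cells shared this treatment. Lin28b is expressed in Lin28bTg cells from the thymus on, and the promoters that drive the transgenes are not given in the sources used here. Naive cells were untreated in culture. Cells of the 12 h group were activated with anti-CD3 and anti-CD28 antibodies and with 2 µg/ml doxycycline. Cells of the day 5 group were activated with anti-CD3 and irradiated splenocytes, received 100 U/ml IL-2 at 48 h, and had the same doxycycline concentration. The day 5 cultures thus began with cells of another kind. The study presents the day 5 libraries as an RNA-seq analysis of their own, and the naive and 12 h libraries together as another. Each of the 9 groups had 3 libraries, described by the study as biological replicates, but whether they came from separate animals is not given for each library, so a p-value covers the spread between these libraries.

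Levels are FPKM, reads scaled to gene length and library size, so levels of different genes can be set side by side per length. The 27 libraries held from 13862706 to 23591069 gene-assigned reads. In bulk RNA fewer cells with a transcript and less transcript per cell cannot be told apart. The 10 CD8 T cell markers summed to between 2225 and 7401 FPKM in every group, and Lin28b RNA was at least 9.9 FPKM in each Lin28bTg library and at most 0.06 FPKM elsewhere. Genes of red cells moved with genotype. The 6 erythroid markers summed to 153 to 292 FPKM in naive WT, 494 to 1994 FPKM in naive Lin28bTg and 1.92 to 38.7 FPKM in naive Let-7Tg libraries, and 3 of the 5 tested were lower in Let-7Tg than in WT at 12 h. At day 5 the same markers summed to at most 1.84 FPKM in any library. The part of this difference in the values below was not tested.

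Several libraries stood apart from the others of their group in the genes described here. The library WT day 5 replicate 2 differed most: it held 87.3 FPKM of H2-T10 where replicates 1 and 3 held 20.9 and 17.4 FPKM, and it lacked Gm9574, which the others had. WT 12 h replicate 2 held 15.5 FPKM of H2-T10 and 6.77 FPKM of H2-T-ps, below replicates 1 and 3 of its group. That library also held 6.07 FPKM of Ddr1 and 8.42 FPKM of H2-M3, above both. Among Lin28bTg libraries, naive replicate 3, 12 h replicate 3 and day 5 replicate 2 differed from their partners in Gm8810 and Gm9574. Among Let-7Tg libraries, 12 h replicate 2 had the highest H2-K1, H2-D1 and Ddr1 of its group. WT day 5 replicates 1 and 3 in turn were like Let-7Tg libraries in Gm8810 and Gm9574, and replicate 2 like naive WT. Which animals lie behind the 3 libraries is not given in the sources used here, so day 5 differences from WT are given also without each of them.

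In GRCm38 the members span 3.28 Mb of chromosome 17. H2-K1 lies at chr17:33996017-34000347 on the minus strand, H2-D1 at chr17:35262730-35267499 on the plus strand, and Ddr1 at chr17:35681567-35704621 on the minus strand. The next 6 members lie on the minus strand within 102 kb: Gm8810 (chr17:36066108-36067753), H2-T-ps (chr17:36109234-36111658), H2-T10 (chr17:36115876-36121465), Gm9574 (chr17:36137188-36139105), Gm10499 (chr17:36141758-36145923) and Gm8909 (chr17:36164443-36168537). H2-M3 lies farthest along, at chr17:37270220-37274484 on the plus strand. The GENCODE annotation calls H2-K1, H2-D1, Ddr1, H2-M3 and Gm8909 protein coding, H2-T10 a polymorphic pseudogene, Gm10499 a transcribed unprocessed pseudogene, and H2-T-ps, Gm8810 and Gm9574 unprocessed pseudogenes.

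Class I genes share long stretches of sequence, and reads from such stretches can be assigned to the wrong copy. Of all 50-base words in the annotated transcripts of H2-T10, 50.4% also occur in another gene, 31.7% in H2-T22 alone. The share was 29.4% for H2-T-ps, mainly with H2-T23, 26.4% for Gm8909 and 19.8% for Gm10499. It was 12.8% for H2-D1, 11.8% for Gm9574 and 9.63% for H2-K1, and 72 of 705 words for Gm8810. Ddr1 shared 3.42% of its words, with the antisense gene Gm4577, and H2-M3 shared 0.576%. Levels of the T region copies are therefore uncertain, also because H2-T10 and Gm8909 overlap antisense genes and the use of strand in counting is not given in the sources used here.

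The promoters of 4 members are printed because H2-K1 ran with H2-D1 over the libraries, and H2-M3 with Ddr1 (Pearson r = 0.92 and 0.84, n = 27, stage means taken off). Each runs 5′ to 3′ from 250 bases before to 50 bases after the start site, from RefSeq on GRCm38.p6, with the kappa B core GGGNNTTCC in capitals.
H2-K1 promoter, chr17:34000298-34000597, minus strand: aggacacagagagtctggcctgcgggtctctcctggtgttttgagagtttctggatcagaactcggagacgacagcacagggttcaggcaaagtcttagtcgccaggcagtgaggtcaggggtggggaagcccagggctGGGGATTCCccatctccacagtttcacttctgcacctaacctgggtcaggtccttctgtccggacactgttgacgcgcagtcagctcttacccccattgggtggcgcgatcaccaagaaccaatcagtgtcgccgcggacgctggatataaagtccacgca
H2-D1 promoter, chr17:35262844-35263143, plus strand: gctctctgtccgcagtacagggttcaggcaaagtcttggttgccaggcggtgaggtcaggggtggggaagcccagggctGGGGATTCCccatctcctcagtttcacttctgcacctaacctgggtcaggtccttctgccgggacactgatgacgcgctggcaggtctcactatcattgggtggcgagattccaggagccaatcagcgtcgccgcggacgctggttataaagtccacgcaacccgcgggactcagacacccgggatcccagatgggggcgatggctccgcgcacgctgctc
H2-M3 promoter, chr17:37269984-37270283, plus strand: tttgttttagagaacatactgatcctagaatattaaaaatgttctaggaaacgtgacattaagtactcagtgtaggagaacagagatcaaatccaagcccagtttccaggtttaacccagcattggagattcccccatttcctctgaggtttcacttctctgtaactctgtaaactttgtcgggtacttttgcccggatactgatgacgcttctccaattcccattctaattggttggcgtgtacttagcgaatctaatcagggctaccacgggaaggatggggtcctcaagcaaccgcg
Ddr1 promoter, chr17:35704550-35704849, minus strand: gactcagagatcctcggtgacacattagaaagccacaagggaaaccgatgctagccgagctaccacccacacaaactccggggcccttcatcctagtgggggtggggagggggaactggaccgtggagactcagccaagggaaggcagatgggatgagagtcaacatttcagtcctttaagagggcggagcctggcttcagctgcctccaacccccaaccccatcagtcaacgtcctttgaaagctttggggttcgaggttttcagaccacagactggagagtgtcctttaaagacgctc
RefSeq had promoters for 7 of the 10 members. They were searched on both strands for the kappa B core, the interferon response core GAAANNGAA and the X2 box cores TGACGT and TGATGT. Only H2-K1 and H2-D1 held a match, to the kappa B core, starting 111 and 171 bases before the start site. Only these exact words were searched, so a promoter without a match can still hold a variant of an element. Of all 32851 mouse promoters, 5.82% held that core, 8.56% the interferon core and 20.1% an X2 core.

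H2-K1 and H2-D1 were the most abundant members by more than 10-fold per length, and naive levels were alike across genotypes. H2-K1 stood at 3372, 2744 and 2869 FPKM in the 3 naive WT libraries, at 2881, 2906 and 2736 FPKM in Lin28bTg and at 3207, 3419 and 2818 FPKM in Let-7Tg, with all 3 groups overlapping. H2-D1 stood at 2942, 2579 and 2536 FPKM in WT, 2568, 2994 and 2489 FPKM in Lin28bTg and 2732, 3148 and 2504 FPKM in Let-7Tg, again with overlap. The naive difference that marks the region is thus not seen in these 2 genes.

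At 12 h both genes were far below their naive level in every library. H2-K1 was 1035, 1016 and 1091 FPKM in WT, 1226, 1328 and 1230 FPKM in Lin28bTg and 1084, 1623 and 1066 FPKM in Let-7Tg. H2-D1 was 860, 893 and 890 FPKM in WT, 1138, 1234 and 1214 FPKM in Lin28bTg and 920, 1335 and 983 FPKM in Let-7Tg. The WT libraries lay below every Lin28bTg library in both genes, and below every Let-7Tg library in H2-D1. Against WT, H2-D1 was higher in Lin28bTg by 0.42 ± 0.109 on the log2 scale (SE, adjusted p = 0.0437, limma), 1195 ± 50.6 against 881 ± 18.2 FPKM (SD, n = 3), where 8.49% of all tested genes passed in that comparison. The H2-D1 call was lost on leaving out any 1 of the 6 libraries, with log2 differences of 0.39 to 0.47 and adjusted p = 0.0693 to 0.156 by limma. H2-K1 differed by 0.25 ± 0.128 there (adjusted p = 0.264, limma). In Let-7Tg the differences from WT were 0.21 ± 0.128 for H2-K1 and 0.25 ± 0.109 for H2-D1, with adjusted p = 0.380 and 0.227 by limma, and neither passed.

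At day 5 the order of the genotypes was another. H2-K1 was 1979, 1634 and 1713 FPKM in WT, 1512, 1347 and 1473 FPKM in Lin28bTg and 2292, 2156 and 2021 FPKM in Let-7Tg, so the 3 genotypes did not overlap. H2-D1 was 2177, 1644 and 1779 FPKM in WT, 1582, 1367 and 1466 FPKM in Lin28bTg and 2401, 2419 and 2039 FPKM in Let-7Tg, with Lin28bTg below all others and the WT and Let-7Tg libraries overlapping. Both genes were higher in Let-7Tg than in Lin28bTg, H2-K1 by 1.49-fold (log2 0.47 ± 0.0847, adjusted p = 0.00484, limma) and H2-D1 by 1.55-fold (log2 0.52 ± 0.109, adjusted p = 0.00886, limma). These were 2 of the 7 tested members, in a comparison that called 21.6% of all genes. Neither transgenic line passed against WT. The difference from WT was 0.23 ± 0.0847 for H2-K1 and 0.24 ± 0.109 for H2-D1 in Let-7Tg (adjusted p = 0.286 and 0.397, limma), and -0.24 ± 0.0847 and -0.28 ± 0.109 in Lin28bTg (adjusted p = 0.159 and 0.193, limma). Without WT day 5 replicate 1, 2 or 3 the Let-7Tg difference was 0.30, 0.16 or 0.23 for H2-K1 and 0.35, 0.15 or 0.24 for H2-D1. Natural killer cell markers moved with genotype at this stage, with 4 genes summing to 68.5 to 97.0 FPKM in WT, 141 to 303 FPKM in Lin28bTg and 18.9 to 48.3 FPKM in Let-7Tg. Eomes, in this set, is also a CD8 T cell factor that the study lists among genes expressed in day 5 Lin28bTg cells. The sum is therefore not a measure of natural killer cells alone. Stromal markers (5 genes) summed to 13.0 to 19.2 FPKM in WT, 3.62 to 9.16 FPKM in Lin28bTg and 20.8 to 36 FPKM in Let-7Tg. That is the same order as H2-K1, but none of the 4 tested genes passed for Let-7Tg against WT. The sum was larger in naive WT, at 64.3 to 65.5 FPKM, and is not taken as a measure of stromal cells. The part of either in these values was not tested.

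The Lin28bTg difference from WT in H2-D1 thus had opposite signs at 12 h and day 5. The change between the stages, taken after the values were seen and fitted over all 27 libraries, was -0.68 ± 0.170 (adjusted p = 0.0172, limma), where 6.42% of genes passed. For H2-K1 it was -0.47 ± 0.164 (adjusted p = 0.0982, limma). The same change of the Let-7Tg difference was 0.03 ± 0.164 for H2-K1 and 0.01 ± 0.170 for H2-D1. Leaving out any 1 of the libraries kept the H2-D1 value of Lin28bTg between -0.77 and -0.57, and the call was lost in 1 case, without WT day 5 replicate 1 (log2 -0.57, adjusted p = 0.0618, limma). The study presents the day 5 and 12 h libraries as separate RNA-seq analyses, so stage and analysis cannot be told apart here.

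**Figure D1:**
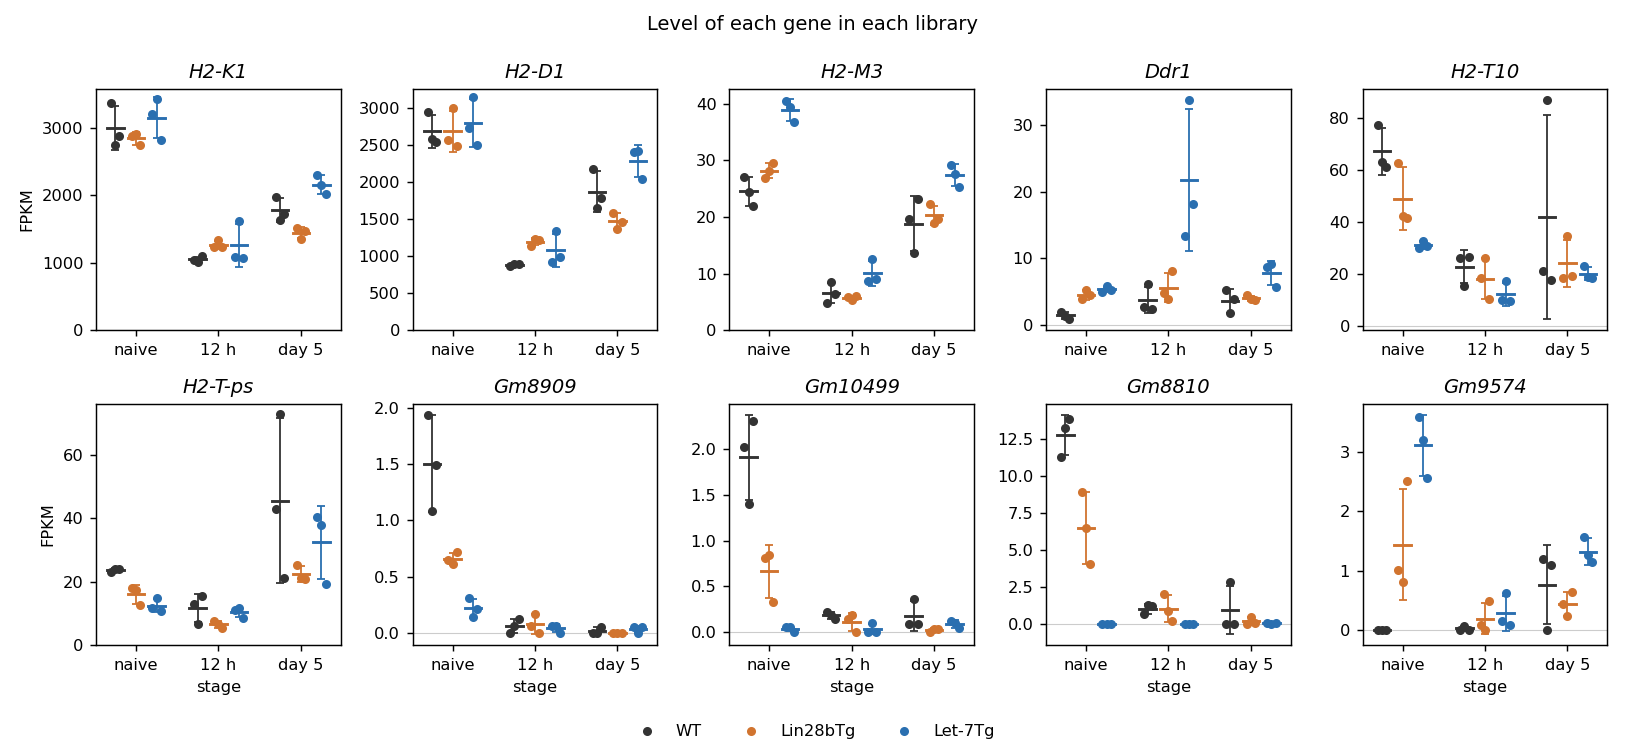
FPKM on the y axis of the 10 genes in each of the 27 libraries by stage, with points for libraries, horizontal bars for group means and error bars for SD (n = 3). H2-K1 and H2-D1 are lower at 12 h than in naive cells in all genotypes, Gm8810 is at 0 FPKM in all naive Let-7Tg libraries, and WT day 5 spreads widely in H2-T10 and H2-T-ps with replicate 2 highest.

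H2-M3 was higher in naive Let-7Tg cells and lay above the other genotypes at the later stages too. It was 27.1, 24.5 and 22 FPKM in naive WT, 26.9, 28.2 and 29.6 FPKM in naive Lin28bTg and 40.6, 39.4 and 36.8 FPKM in naive Let-7Tg libraries, a log2 difference between Let-7Tg and WT of 0.61. At 12 h it was 4.83, 8.42 and 6.30 FPKM in WT, 5.87, 5.26 and 5.96 FPKM in Lin28bTg and 8.60, 12.6 and 8.97 FPKM in Let-7Tg. At day 5 it was 19.6, 13.6 and 23.2 FPKM in WT, 22.2, 19.0 and 19.6 FPKM in Lin28bTg and 29.2, 27.6 and 25.3 FPKM in Let-7Tg. The Let-7Tg libraries lay above every WT and Lin28bTg library at all 3 stages. Against WT the difference was 0.58 ± 0.182 at 12 h and 0.51 ± 0.181 at day 5, and neither passed the threshold (adjusted p = 0.110 and 0.266, limma). Against Lin28bTg it passed at 12 h, at 0.74 (adjusted p = 0.0139, limma), and not at day 5, at 0.32 (adjusted p = 0.242, limma). Without WT day 5 replicate 1, 2 or 3 the day 5 difference from WT was 0.54, 0.29 or 0.69 (adjusted p = 0.394, 0.542 and 0.0587, limma), and without Lin28bTg 12 h replicate 2 the 12 h difference from Lin28bTg was 0.69 (adjusted p = 0.0528, limma).

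Ddr1 had the largest fitted log2 difference between Let-7Tg and WT among the members tested at 12 h and at day 5. It was 1.98, 1.37 and 0.900 FPKM in naive WT, 3.83, 5.28 and 4.49 FPKM in naive Lin28bTg and 4.98, 5.77 and 5.25 FPKM in naive Let-7Tg, so both transgenic lines lay above WT. At 12 h it was 2.71, 6.07 and 2.46 FPKM in WT, 4.84, 3.83 and 8.03 FPKM in Lin28bTg and 13.4, 33.8 and 18.1 FPKM in Let-7Tg. Only the Let-7Tg group now stood apart. Ddr1 was 5.82-fold higher in Let-7Tg than in WT at 12 h (log2 2.36 ± 0.383, adjusted p = 0.0225, limma), where 3.26% of all genes passed, and higher than in Lin28bTg by 1.82 on the log2 scale (adjusted p = 0.00713, limma), where 30.9% passed. Its level was highest in Let-7Tg 12 h replicate 2, and the lowest Let-7Tg library was still above every WT and Lin28bTg library. The call against WT was lost without WT replicate 1 (log2 2.21, adjusted p = 0.0759, limma), without WT replicate 3 (2.16, adjusted p = 0.0957, limma) or without Let-7Tg replicate 3 (2.41, adjusted p = 0.0532, limma).

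At day 5 Ddr1 was 5.26, 1.72 and 3.901 FPKM in WT, 4.42, 3.94 and 3.69 FPKM in Lin28bTg and 8.67, 9.10 and 5.75 FPKM in Let-7Tg. The Let-7Tg libraries again lay above the others, by 2.16-fold over WT, but the test did not pass (log2 1.04 ± 0.319, adjusted p = 0.182, limma). With replicate numbers as a block the adjusted p was 0.0970, and without WT day 5 replicate 1, 2 or 3 the log2 difference was 1.33, 0.64 or 1.16 (adjusted p = 0.188, 0.373 and 0.152, limma). The change of the Let-7Tg difference from 12 h to day 5 was -1.32 ± 0.480 (adjusted p = 0.216, limma).

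H2-T10, a class Ib gene closely related to H2-T22, and the pseudogene H2-T-ps were lower in naive Let-7Tg cells. H2-T10 was 77.5, 63.1 and 61.1 FPKM in naive WT, 62.9, 42.3 and 41.7 FPKM in Lin28bTg and 29.8, 32.8 and 30.8 FPKM in Let-7Tg. H2-T-ps was 23.2, 24.1 and 23.9 FPKM in WT, 18.0, 17.4 and 12.7 FPKM in Lin28bTg and 11.6, 14.8 and 10.9 FPKM in Let-7Tg. In both genes naive Let-7Tg lay below all WT libraries, and Lin28bTg means lay between the others.

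Later the groups overlapped. H2-T10 was 26.3, 15.5 and 26.6 FPKM in WT, 18.2, 26.1 and 10.12 FPKM in Lin28bTg and 9.88, 17.1 and 9.32 FPKM in Let-7Tg at 12 h, with overlapping groups and a Let-7Tg difference from WT of -0.92 ± 0.343 (adjusted p = 0.159, limma). At day 5 it was 20.9, 87.3 and 17.4 FPKM in WT, 18.5, 34.6 and 19.3 FPKM in Lin28bTg and 22.9, 18.7 and 18.4 FPKM in Let-7Tg. The Let-7Tg difference there, -0.71 ± 0.523 (adjusted p = 0.696, limma), was -1.02, -0.00 or -1.12 without WT day 5 replicate 1, 2 or 3.

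H2-T-ps was lowest at 12 h in WT and highest at day 5. At 12 h it was 13.0, 6.77 and 15.4 FPKM in WT, 7.67, 6.59 and 5.30 FPKM in Lin28bTg and 10.9, 11.6 and 8.55 FPKM in Let-7Tg. At day 5 it was 42.8, 72.8 and 21.1 FPKM in WT, 25.3, 21.2 and 20.8 FPKM in Lin28bTg and 40.4, 37.8 and 19.3 FPKM in Let-7Tg. The Let-7Tg and WT libraries overlapped at both stages, with differences of -0.13 ± 0.266 and -0.43 ± 0.399 (adjusted p = 0.813 and 0.788, limma), and the day 5 value was -0.40, -0.02 or -0.87 without WT day 5 replicate 1, 2 or 3. At 12 h Lin28bTg differed from WT by -0.75 ± 0.266 (adjusted p = 0.118, limma). With a library left out this ran from -1.10 to -0.52, and it passed without WT 12 h replicate 2 (-1.10, adjusted p = 0.00685, limma).

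The pseudogenes Gm8810 and Gm9574 lie within the same stretch, and 8.23% of the 50-base words of Gm8810 are found in Gm9574. Most of their words are not shared, so the shares below compare the reads of 2 genes. In naive WT and Let-7Tg cells the reads of the pair sat on one or the other, and in Lin28bTg on both. Gm8810 was 11.3, 13.2 and 13.9 FPKM in WT, 8.90, 6.52 and 4.05 FPKM in Lin28bTg and 0 in all 3 Let-7Tg libraries, at least 46.5-fold lower than WT when set against 3 reads per library. Gm9574 was 0 in all WT libraries, 1.00, 0.803 and 2.51 FPKM in Lin28bTg and 3.59, 3.20 and 2.56 FPKM in Let-7Tg, at least 12.8-fold higher than WT. Of the reads on the pair, Gm9574 took 0% in each naive WT library (of 134, 141 and 148 reads), 11.2, 12.1 and 41.0% in Lin28bTg and 100% in each Let-7Tg library (of 47, 38 and 30 reads). Counting intervals cover counting error only, and for the WT libraries the exact upper limits were 2.72, 2.58 and 2.46%.

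At 12 h the pair held few reads. Gm8810 was 0.658, 1.27 and 1.18 FPKM in WT, 2.02, 0.862 and 0.232 FPKM in Lin28bTg and 0 in all 3 Let-7Tg libraries. It was lower in Let-7Tg than in WT (log2 -1.60 ± 0.369, adjusted p = 0.04996, limma) and lower than in Lin28bTg (log2 -1.44, adjusted p = 0.0167, limma), by at least 4.10-fold against WT. Because the gene entered the test through the groups in which it was present, it had to differ, and the call is not counted as support. Leaving out any 1 of the 6 libraries raised the adjusted p against WT to 0.0711 to 0.166 (limma), and leaving out Lin28bTg replicate 2 raised that against Lin28bTg to 0.0519 (limma). Gm9574 took 100% of 2, 8 and 1 reads in the Let-7Tg libraries (exact lower limits 15.8, 63.1 and 2.5%), 0, 5.88 and 0% in WT, and 4.00, 0 and 70.0% in Lin28bTg. Gm9574 itself was 0, 0.0706 and 0 FPKM in WT and 0.149, 0.621 and 0.0734 FPKM in Let-7Tg, too low for the test.

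At day 5 the split no longer followed genotype. Gm9574 took 100% of 19 reads, 0% of 40 reads and 100% of 17 reads in WT replicates 1, 2 and 3. The Lin28bTg libraries had 100, 33.3 and 92.3%, and the Let-7Tg libraries 96.3, 100 and 95%. Thus 2 of 3 WT libraries at day 5 resembled Let-7Tg libraries in this pair, while WT replicate 2 resembled naive WT. In FPKM, Gm9574 was 1.20, 0 and 1.09 in WT and 1.57, 1.25 and 1.14 in Let-7Tg (log2 difference 0.67 ± 0.421, adjusted p = 0.617, limma, and 0.97, 0.09 or 0.94 without WT day 5 replicate 1, 2 or 3). Gm8810 was 0, 2.81 and 0 in WT and 0.0677, 0 and 0.0671 in Let-7Tg. H2-Q1, a class I gene outside the list, showed the same 1 library, with 0.0234, 0.815 and 0.0238 FPKM in the 3 WT libraries.

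**Figure D2:**
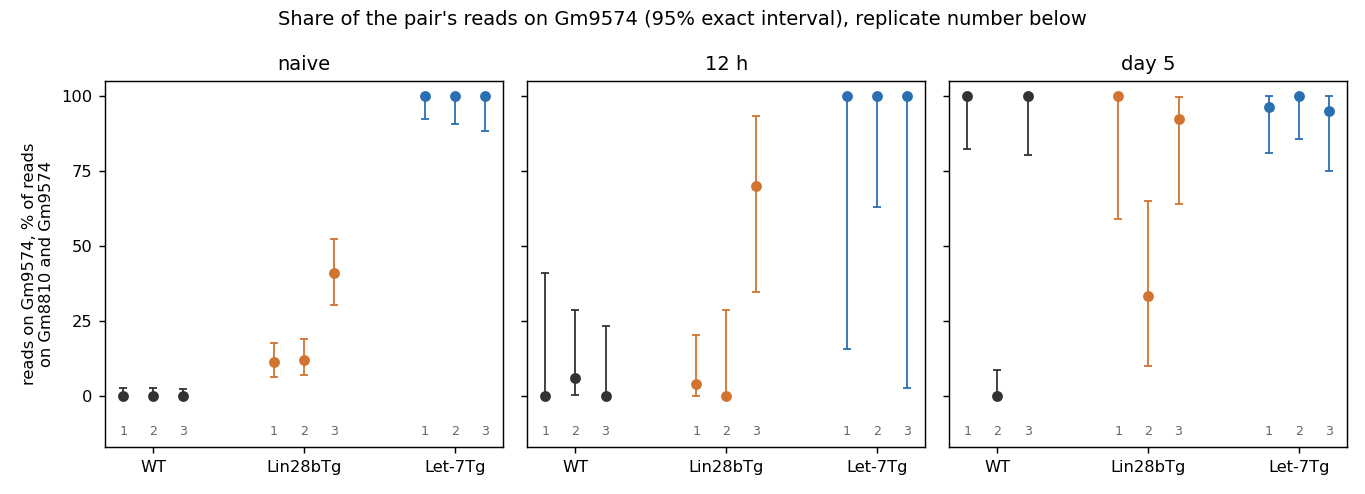
Share of the reads on Gm8810 and Gm9574 that fall on Gm9574, in percent, in each library of the 3 genotypes and stages, with 95% exact binomial intervals and the replicate number below. Naive WT libraries sit at 0% and naive Let-7Tg libraries at 100%, while WT day 5 libraries sit at 100, 0 and 100%.

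Gm8909, a class I-like gene annotated as protein coding, and the pseudogene Gm10499 were expressed mainly in naive cells. Gm8909 was 1.94, 1.08 and 1.49 FPKM in naive WT, 0.647, 0.608 and 0.715 FPKM in Lin28bTg and 0.308, 0.136 and 0.207 FPKM in Let-7Tg. Gm10499 was 2.02, 1.40 and 2.31 FPKM in WT, 0.814, 0.838 and 0.332 FPKM in Lin28bTg and 0.0490, 0.0541 and 0 FPKM in Let-7Tg. In both genes the 3 genotypes did not overlap, in the order WT, Lin28bTg, Let-7Tg. Gm10499 held 111 reads over the 3 naive WT libraries together and 2 over the 3 naive Let-7Tg libraries.

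Both were too low to test later. Gm8909 was at most 0.169 FPKM in any 12 h library and at most 0.0519 FPKM in any day 5 library. Gm10499 ran from 0.145 to 0.215 FPKM in WT and from 0 to 0.0996 FPKM in Let-7Tg at 12 h, and from 0.0811 to 0.363 FPKM in WT and from 0.0384 to 0.116 FPKM in Let-7Tg at day 5. Its WT and Let-7Tg libraries did not overlap at 12 h, by 3 against 2 reads in the nearest libraries, and did at day 5.

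The members are counted here at each stage. Between naive Let-7Tg and WT the libraries did not overlap in 8 of 10 members, 3 higher and 5 lower, where 24% of all tested genes did not overlap, a count that the choice of members fixes. At 12 h they did not overlap in 4 of 7 tested members, 3 higher (H2-D1, H2-M3 and Ddr1) and 1 lower (Gm8810), against 25.2% of all genes. Gm8810 had to differ by the way it entered the test, so its place in this count is not read as support. Gm10499 (lower) and Gm9574 (higher) were too low to test and did not overlap there either. In the nearest WT and Let-7Tg libraries this rested on 3 against 2 reads for Gm10499. For Gm9574 it rested on 1 read against 1, so nothing is read from either. At day 5 they did not overlap in 3 of 7, all higher (H2-K1, H2-M3 and Ddr1), against 17.1% of all genes. The counts of the stages have different bases, and the naive one was fixed by the choice, so no trend is read from them. By adjusted p, Ddr1 passed at 12 h, where 3.26% of genes did, and Gm8810, the other of the 2 members called there, had to differ by the way it entered the test. None of 7 passed at day 5, with limma or with voom on recovered reads, against 0.937%, and 3 had an unadjusted p under 0.05, where 12.6% of genes had. The median difference over the tested members was -0.49 naive, 0.21 at 12 h and 0.24 at day 5, where the medians of all genes were -0.0062, 0.00095 and -0.0097. The naive median covers 10 members and each later median 7, not the same 7, so no trend is read from these either. With the replicate numbers as a block, 1 member passed at 12 h (Ddr1, adjusted p = 0.0317), Gm8810 was at 0.0660, and none passed at day 5. Leaving out 1 library left 0 or 1 member at 12 h.

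H2-M3 and Ddr1 were the members whose naive direction was held by every Let-7Tg library against every WT library at all 3 stages. H2-T10 and H2-T-ps kept their sign, without separation at 12 h or day 5. Without WT day 5 replicate 2 their day 5 differences were -0.003 and -0.02. The 12 h difference of H2-T-ps was 0.10 without WT 12 h replicate 3. In the pair of Gm8810 and Gm9574 the naive direction held at 12 h, on few reads, and broke at day 5 through WT replicates 1 and 3. No member's Let-7Tg difference from WT changed between 12 h and day 5 by the test over 27 libraries, where 1.35% of genes did. Of the 10 members, 1, Ddr1, had an unadjusted p under 0.05 (0.0117), where 11.9% of genes had. Gm8909 and Gm10499 were too low to test at either stage alone, Gm8810 at day 5 and Gm9574 at 12 h. The test could hardly show a change in these genes, so nothing is read from it for them.

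**Figure D3:**
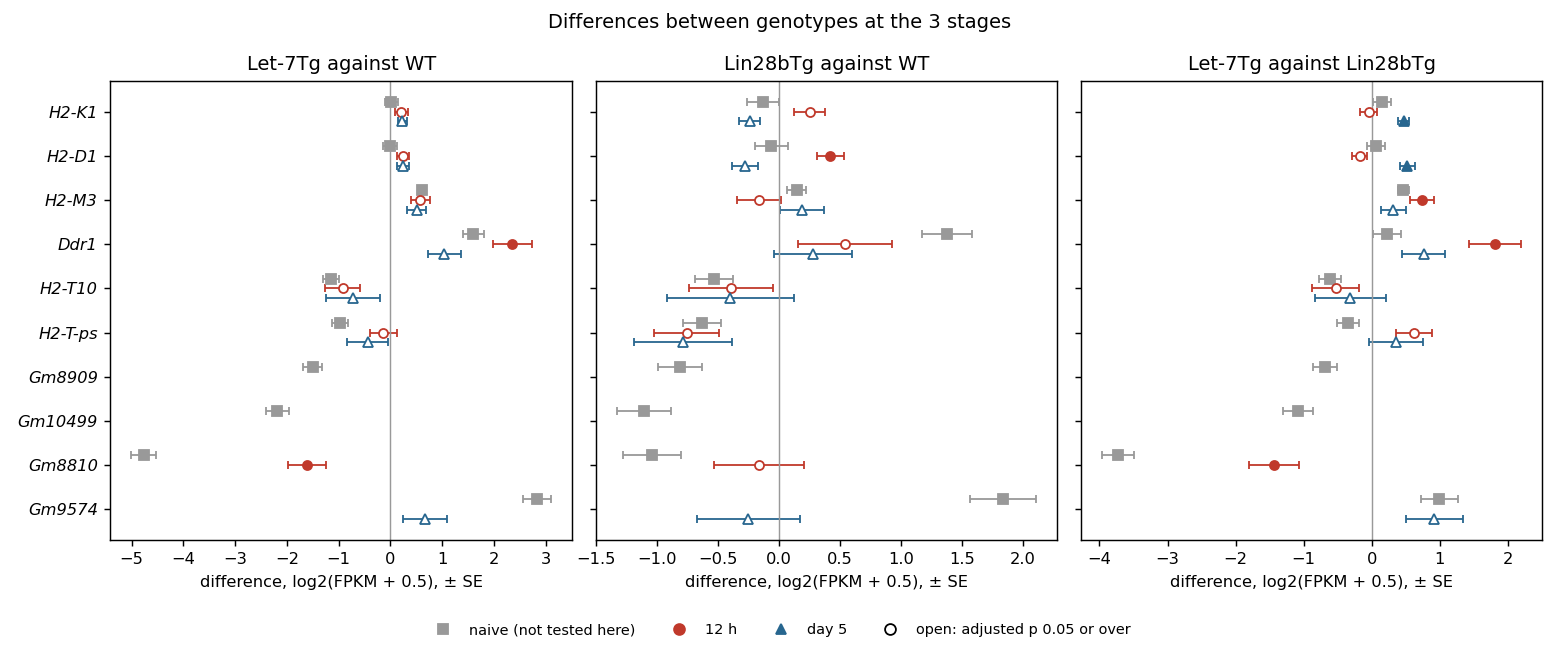
Difference between genotypes on the log2(FPKM + 0.5) scale with SE for each gene, by stage, in 3 comparisons, filled where adjusted p was under 0.05 and with naive values drawn without a test. H2-M3 and Ddr1 stay above 0 for Let-7Tg against WT at every stage, and H2-K1 and H2-D1 change side for Lin28bTg against WT.

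Lin28bTg cells carry another transgene. The naive libraries of Lin28bTg and WT did not overlap in 6 members, with Ddr1 and Gm9574 higher and H2-T-ps, Gm8909, Gm10499 and Gm8810 lower, where 49% of all genes did not overlap, so the members' share was near that of all genes. This comparison shares its WT libraries with that of Let-7Tg. Naive Lin28bTg libraries also held more RNA of several marker sets of other cell types. The stromal set (5 genes) went the other way, at 41.8 to 48.5 FPKM against 64.3 to 65.5 FPKM in WT. The NK set holds Eomes, which is also a CD8 T cell factor. Myeloid markers (6 genes) summed to 117 to 607 FPKM against 24.5 to 40.2 FPKM in WT, dendritic markers (5 genes) to 30.5 to 68.9 against 8.57 to 21.5 FPKM, NK markers (4 genes) to 73.6 to 114 against 24.2 to 50.5 FPKM and B cell markers (6 genes) to 30.3 to 40.5 against 18.9 to 21.6 FPKM. The median class II difference was 1.79 on the log2 scale over 11 genes, and the part of these cells in the members' values was not tested. At 12 h, 1 of 7 tested members passed (H2-D1), where 8.49% of genes passed. That call was lost on leaving out any 1 of the 6 libraries. At day 5, 0 of 7 passed by limma and by voom, where 4.35% of genes passed, and 2 had an unadjusted p under 0.05, where 19.6% of genes had.

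In WT cells the classical genes and H2-M3 were higher at day 5 than at 12 h. From 12 h to day 5, 5 of 10 were higher, where 33.6% of genes were. H2-K1 was 1.70-fold higher (log2 0.62, adjusted p = 6.51e-05, limma), H2-D1 2.12-fold (log2 0.93, adjusted p = 4.36e-07, limma) and H2-M3 2.89-fold (log2 1.33, adjusted p = 1.79e-07, limma). H2-T-ps was 3.89-fold higher (log2 1.69, adjusted p = 8.57e-05, limma), and Gm9574 rose by 1.08 on the log2 scale (adjusted p = 0.0122, limma), from 1 read in the WT 12 h libraries together. The Gm9574 call was lost without WT day 5 replicate 1 (log2 0.78, adjusted p = 0.0887, limma) or 3 (0.81, adjusted p = 0.0770, limma). Ddr1 and H2-T10 did not pass. Without WT day 5 replicate 2, Gm8810 fell by 1.69 on the log2 scale (adjusted p = 0.00046, limma) and the other calls held. The culture conditions differ between the stages, and the study presents the stages as separate RNA-seq analyses. Time, stimulus and any difference between the analyses cannot be told apart.

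The members were then read against their neighbours. Of the 445 genes that start between 30 and 40 Mb of chromosome 17, 194 were tested in naive cells and 14 passed for Let-7Tg against WT (7.22%, where 0.935% of all genes did), 8 of them members, a count that chose the region and from which nothing is read. At 12 h 12 of 174 passed (6.90%, against 3.21% elsewhere), 6 higher and 6 lower, and 10 of them were not members. The 5 non-members that rose were H2-T22, Fkbpl, Angptl4, Abhd16a and Vars2, by 0.43 to 1.90 on the log2 scale. The 5 that fell were Pbx2, Akap8, Atf6b, Rrp1b and Ubash3a, with differences from -0.76 to -0.24, and adjusted p over the 10 genes ran from 0.0273 to 0.0485 (limma). Among all 10 Mb windows with 20 or more tested genes, 21 of 206 had a larger share at 12 h. At day 5 0 of 180 passed by limma or by voom, against 0.951% elsewhere, 18 had an unadjusted p under 0.05, and with the replicate block 4 passed. With the block, 5 window genes passed at 12 h, and 0 passed there without WT replicate 1 or WT replicate 3, 1 without Let-7Tg replicate 2, 2 without WT replicate 2 or Let-7Tg replicate 3.

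**Figure D4:**
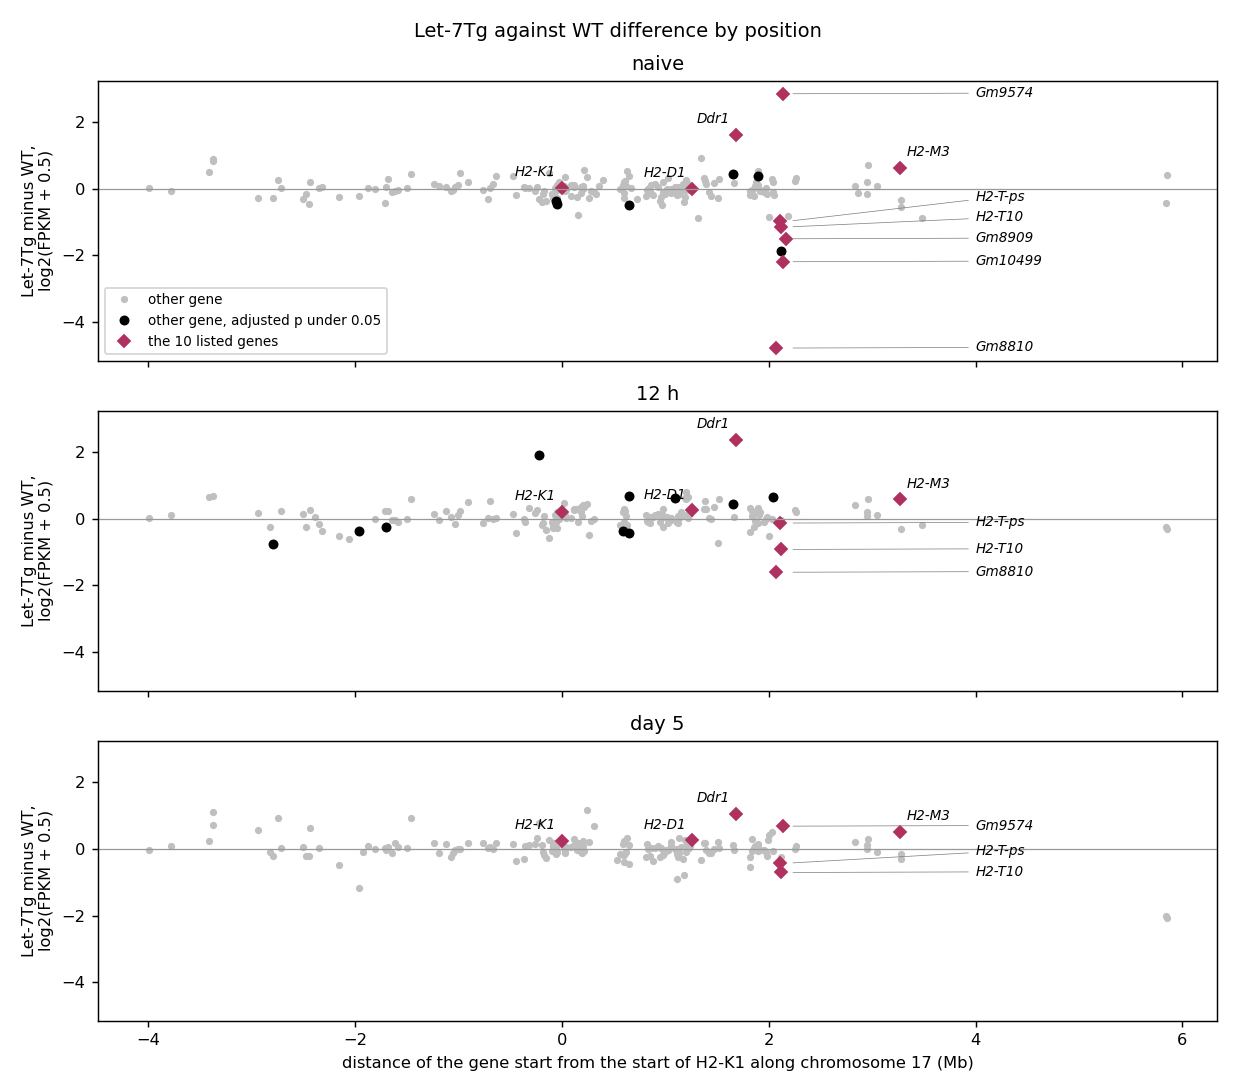
Difference between Let-7Tg and WT on the log2(FPKM + 0.5) scale against the distance of each gene's start from that of H2-K1 in Mb, at the 3 stages, with the 10 members as diamonds and other genes with adjusted p under 0.05 in black. The members between 2 and 3 Mb spread most in naive cells, and no other gene of the window is black at day 5.

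Among the 33 other class I heavy chain genes of a fixed list, 12 were tested at 12 h and 1 passed for Let-7Tg against WT. That gene was H2-T22, a ligand of some gamma delta T cell receptors, at 37.7, 46.1 and 32.8 FPKM in Let-7Tg and 22.9, 28.1 and 22.02 FPKM in WT (log2 0.63 ± 0.113, adjusted p = 0.0273, limma). It shares sequence with H2-T10, which stood in the opposite direction. At day 5 none of 13 passed and none had an unadjusted p under 0.05. The list's median difference was 0.0044 at 12 h and 0.00013 at day 5.

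The class I peptide loading machinery supplies peptides and the light chain to the heavy chains. Of 19 genes, none passed for Let-7Tg against WT at 12 h or day 5 by limma, and 3 and 1 had an unadjusted p under 0.05. B2m, the light chain, was 904, 921 and 949 FPKM in WT and 958, 1144 and 794 FPKM in Let-7Tg at 12 h, and 1453, 1476 and 1541 FPKM in WT against 1885, 2010 and 1827 FPKM in Let-7Tg at day 5 (log2 0.30 ± 0.0678, adjusted p = 0.0823, limma). Tap1, which carries peptides into the endoplasmic reticulum, differed by 0.19 at 12 h and -0.09 at day 5 (adjusted p = 0.265 and 0.903, limma). Cd8a, a gene of the cells themselves, was 173, 121 and 140 FPKM in WT and 141, 99.8 and 113 FPKM in Let-7Tg at 12 h.

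Between Let-7Tg and Lin28bTg at day 5, 6 of the 19 loading genes were higher and none lower, where 10.7% of genes were higher. They were B2m (log2 0.50, adjusted p = 0.00131, limma), Tapbp, Tap2, Tapbpl, Nlrc5, an activator of class I transcription, and Psmb9, an immunoproteasome subunit. This sits beside the higher H2-K1 and H2-D1 of the same comparison. Of 22 interferon response genes tested, 9 were higher and 1 lower there. Of 9 class II genes and factors, 5 were higher.

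For Let-7Tg against WT, the remaining lists were counted by limma, where 3.26% of all genes passed at 12 h and 0.937% at day 5. None of 25 interferon genes passed at 12 h (8 with unadjusted p under 0.05) and none of 22 at day 5 (4). None of 10 class II genes passed at 12 h (0) and none of 9 at day 5 (2). Of the class III and flanking genes, 3 rose and 2 fell of 66 at 12 h (7.58%). These were Fkbpl, Abhd16a and Vars2, and Pbx2 and Atf6b, all among the window genes named above and not a separate result. At day 5 none of 67 passed (5 with unadjusted p under 0.05).

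Levels ordered over the 9 groups show how far neighbours are resolved. For H2-K1 and H2-D1, 4 of 8 neighbouring pairs of groups did not overlap, for H2-M3 3 of 8, for Ddr1 and Gm9574 1 of 8, and for H2-T10 0 of 8. H2-K1 ran from 3148 FPKM in naive Let-7Tg to 1047 FPKM in WT at 12 h, with the 3 naive groups overlapping in turn. Ddr1 ran from 21.8 FPKM in Let-7Tg at 12 h to 1.41 FPKM in naive WT, and only the highest step was free of overlap.

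Over the 27 libraries, with each stage's mean taken off, the genes most like each member were found among 14448 others. H2-K1 was most like H2-D1 (Pearson r = 0.92), then Ramp1 (0.79) and Tbc1d10a (0.78). H2-D1 was next most like Tspo and Grap (0.82 each). H2-M3 was most like Ddr1 (0.84), Tcap (0.82) and Vars2 (0.80), and Ddr1 like Col1a1 and H2-M3 (0.84 each). The let-7 transgene is inserted at Col1a1, so that gene follows the Let-7Tg label. H2-T10 was most like H2-Q1 (0.87), Gm14292 (0.86) and Gm8810 (0.76), and H2-T-ps like Paip2 (0.78), Reck (0.72) and H2-Q1 (0.71). Gm8810 and Gm9574 ran opposite each other (r = -0.84), Gm10499 with Gm8909 (0.89) and with Gm8810 (0.88). The points share libraries and depth and include the naive libraries that chose the members, so these are descriptions without a test.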

How the data were processed

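RNA was sequenced from 27 libraries of P14+ CD8 T cells, 9 groups of 3. Per the labels, the authors aligned reads with TopHat2 2.0.9 and Bowtie2 2.0.6 to GRCm38 (mm10) and counted them with HTSeq 0.6.1. Read length, annotation release and use of strand are not given in the sources used here. The authors deposited 1 table per stage with the FPKM of each library and a group mean of normalised counts (a signal), which served only to check the recovered reads. Columns of the authors' own comparisons, holding log2 fold changes and p-values, were not used, and 0 per-sample columns were left out.

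FPKM values were whole multiples of the value of 1 read, so whole reads were recovered for all 25144 genes with a value above 0 (100% of 462839 values whole within 0.05). Libraries were scaled by trimmed means, and for each stage a model over its 9 libraries was fitted to log2(FPKM + 0.5) by limma 3.58.1 (R 4.3.3), so folds of low genes are understated. A gene was tested with at least 10 reads at median depth (16761374 reads) in 3 libraries and 15 reads over the 9. This left 13262 genes in naive cells, 12231 at 12 h, 13016 at day 5 and 14449 in the fit over 27 libraries. P-values were adjusted by Benjamini-Hochberg over all tested genes, and called means an adjusted p under 0.05. Fold changes are ratios of mean FPKM. Exact binomial intervals are at 95%.

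The members and gene lists were chosen with earlier results of these data known, and so were the stage comparisons in WT and Lin28bTg and the Gm8810 and Gm9574 shares. Genes other than members were named by the rules of the lists, with B2m, Tap1 and Cd8a in any case. H2-Q1 was named after its values were seen. 1 gene among those most like the members is not reported here. Replicate numbers were taken as pairing where deviations of same-numbered libraries correlated above 0.1 in every pair. That held at day 5 for WT with Let-7Tg (r from 0.534 to 0.716), for WT with Lin28bTg (0.285 to 0.369) and for Lin28bTg with Let-7Tg (0.245 to 0.514), and at 12 h for WT with Let-7Tg (0.24 to 0.549). The labels do not say what a number marks. Alternatives were other scalings, pseudocounts of 0.1 and 1, no filter, a fit of only the 2 groups compared, voom on recovered reads, the replicate block and each library left out. The fit was tested on simulated data. Positions are from GENCODE M21 (34490 of 35275 gene IDs matched) and promoters from RefSeq (GRCm38.p6). Python 3.11.15, numpy 2.4.6, pandas 2.3.3, scipy 1.17.1 and matplotlib 3.10.9 were used.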

Additional observations from a re-analysis of the deposited data

Results flagged for a closer look

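The change of the Lin28bTg difference from WT between 12 h and day 5 in H2-D1 was -0.68 on the log2 scale (adjusted p = 0.0172, limma). It is given again because the difference between the genotypes had opposite signs at the 2 stages, 0.42 at 12 h and -0.28 at day 5, and the difference of the differences passed its own test. The test was chosen after the values were seen.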

How the results depend on the processing

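Of 783 values of single members under other settings, 720 kept their direction and their side of the threshold, 28 lost and 9 gained a call, and 26 changed sign. The count of members called for Let-7Tg against WT at 12 h, 2, was 1 without scaling, 1 with a pseudocount of 1, 0 without the filter, 1 with only the 2 groups, 1 with the replicate block and 0 to 1 with a library left out. The 12 window genes became 2 without the filter, 2 with only the 2 groups, 5 with the replicate block and 0 to 18 with a library left out. For Lin28bTg against WT at 12 h the 1 member became 0 without scaling or filter, 2 with only the 2 groups and 0 to 1 with a library left out. For Let-7Tg against Lin28bTg the 3 members at 12 h became 1 to 5 with a library left out, and the 2 at day 5 became 5 with only the 2 groups. The 0 window genes of Let-7Tg against WT at day 5 became 4 with the replicate block and 0 to 3 with a library left out. The 1 member whose Lin28bTg difference changed between stages became 0 to 1. The cause of these changes was not tested.

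The replicate block changed the number of all genes called from 399 to 242 at 12 h and from 122 to 533 at day 5 for Let-7Tg against WT, from 566 to 1756 for Lin28bTg and from 2810 to 4734 for Let-7Tg against Lin28bTg at day 5, and from 195 to 357 and 928 to 1542 for the stage differences of Let-7Tg and Lin28bTg. At 12 h the numbers do not pair Lin28bTg with the others. The 12 h Let-7Tg count ranged from 35 to 466 under other settings and from 5 to 714 with a library left out, and the day 5 count from 1 to 533 and from 3 to 313. For Lin28bTg against WT the range was 192 to 1756 and 163 to 683 at day 5 and 810 to 1418 and 423 to 794 at 12 h.

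None of the values that changed sign was called. With a library left out they ranged, for Let-7Tg against WT at 12 h, from -0.48 to 0.10 in H2-T-ps, and for Lin28bTg against WT at 12 h from -0.34 to 0.013 in H2-M3 and from -0.60 to 0.28 in Gm8810. H2-K1 in Let-7Tg against Lin28bTg at 12 h ranged from -0.20 to 0.039. For Lin28bTg against WT at day 5 they ranged from -0.80 to 0.31 in H2-T10, -0.033 to 0.37 in H2-M3, -0.12 to 0.56 in Ddr1 and -0.83 to 0.048 in Gm9574, which was 0.36 with voom. The change of the Let-7Tg difference between stages ranged from -0.047 to 0.19 in H2-K1 and -0.087 to 0.13 in H2-D1. In WT, day 5 against 12 h, they ranged from -0.33 to 0.78 in H2-T10, -0.26 to 0.021 in Gm10499 and -0.45 to 0.23 in Ddr1.

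After activation Gm8810, Gm9574, Gm8909 and Gm10499 held few reads in libraries of this depth, and small differences between genotypes in these genes were not detectable.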
